A study of Mus musculus with 6 samples.

Results

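The genes described here encode 10 proteoglycan core proteins of connective tissue matrix, chosen by name: Aspn, Dcn, Bgn, Fmod, Lum, Prelp, Omd, Ogn, Vcan and Acan. They were 10 of 19936 genes tested, and each was read from its only probe set with a single gene name. Affymetrix arrays measured the RNA of a Tet-off cell line derived from MEFs (mouse embryonic fibroblasts), whose cells make a tetracycline-controlled transactivator. The HA-Fbxl10 group held 3 RNA samples of cells that had received a plasmid with the cDNA of HA-tagged Fbxl10 and a plasmid for hygromycin resistance, and that were taken as clones selected for HA-Fbxl10. Untransfected cells of this Tet-off line gave the 3 RNA samples of the control group. No cells with an empty plasmid were among the samples, so transfection, drug selection, clonal origin and Fbxl10 itself cannot be told apart as sources of a difference. The labels call the samples independent but name no separate clones or cultures. The p-values thus cover the spread between these 6 samples alone, and it may be technical.

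Small leucine-rich proteoglycans (SLRPs) are secreted proteins with a curved array of leucine-rich repeats that binds fibrillar collagens and growth factors. Most of them carry chains of chondroitin, dermatan or keratan sulfate, and in fibroblast matrix they are known for setting the spacing and thickness of collagen fibrils. The large proteoglycans versican and aggrecan instead bind hyaluronan and hold water in the matrix through many chondroitin sulfate chains. Fbxl10, now named Kdm2b, is a histone demethylase with a zinc finger that binds DNA at unmethylated CG dinucleotides.

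Kdm2b was 5.03-fold higher in HA-Fbxl10 cells, with log2 levels of 9.70 ± 0.10 in HA-Fbxl10 cells and 7.37 ± 0.08 in control cells (SD, n = 3 each). Most fibroblast markers were well expressed: of 10 such genes, Col1a1 and Vim among them, the mean level of only 1 (Thy1) lay below the median of all genes. Their average log2 level was 10.2 to 10.3 on the HA-Fbxl10 arrays and 10.4 to 10.5 on the control arrays, and 3 of them (Col3a1, S100a4 and Pdgfra) fell. Beside this and the marker counts that follow, limma at an adjusted p under 0.05 called 10.6% of all genes lower and 10.5% higher. The call of Pdgfra ended without HA-Fbxl10 replicate 1 or 2 or control replicate 1 or 3 (limma adjusted p of 0.0703 to 0.0977). Of 12 cartilage markers Col2a1 rose and Sox9 fell, and 7 had means under the median of all genes. The call of Sox9 ended without replicate 2 of either group (limma adjusted p of 0.0588 and 0.0604). Of 5 bone markers 0 passed limma (1 before adjustment), and all 5 means were under that median. Of 4 tendon markers Mkx rose, of 7 macrophage markers Cd14 fell, and of 4 smooth muscle and 4 epithelial markers 0 passed limma (1 and 0 before adjustment). The smooth muscle markers averaged 9.93 to 9.99 on the HA-Fbxl10 arrays and 9.98 to 9.99 on the control arrays, with 1 mean under that median. High levels were thus not particular to the fibroblast markers. The call of Cd14 ended without replicate 1 or 3 of either group (limma adjusted p of 0.085 to 0.119). The part of these markers in the results below was not tested. In such bulk samples, fewer cells expressing a gene and less RNA per cell cannot be told apart.

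In HA-Fbxl10 cells 2 of the 10 core protein genes fell and 0 rose, while 8 missed the threshold (limma, adjusted p under 0.05 over all genes). At an unadjusted p under 0.05 there were 4 lower and 1 higher. Asporin (Aspn) and fibromodulin (Fmod) were the 2 that fell, by 2.71-fold and 2.35-fold. Of all 19936 genes 21.1% passed the same threshold, with 10.6% lower and 10.5% higher, so 2 of 10 is close to the share of all genes. Both changes were larger than 2-fold, as were those of 0.958% of all genes in either direction and of 0.592% downwards. The median log2 difference over the 10 genes was -0.04, against -0.00 over all genes tested. The groups' values were fully separate for 3 of the 10 genes (Aspn, Fmod and Dcn), against 36% of all genes.

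**Figure D1:**
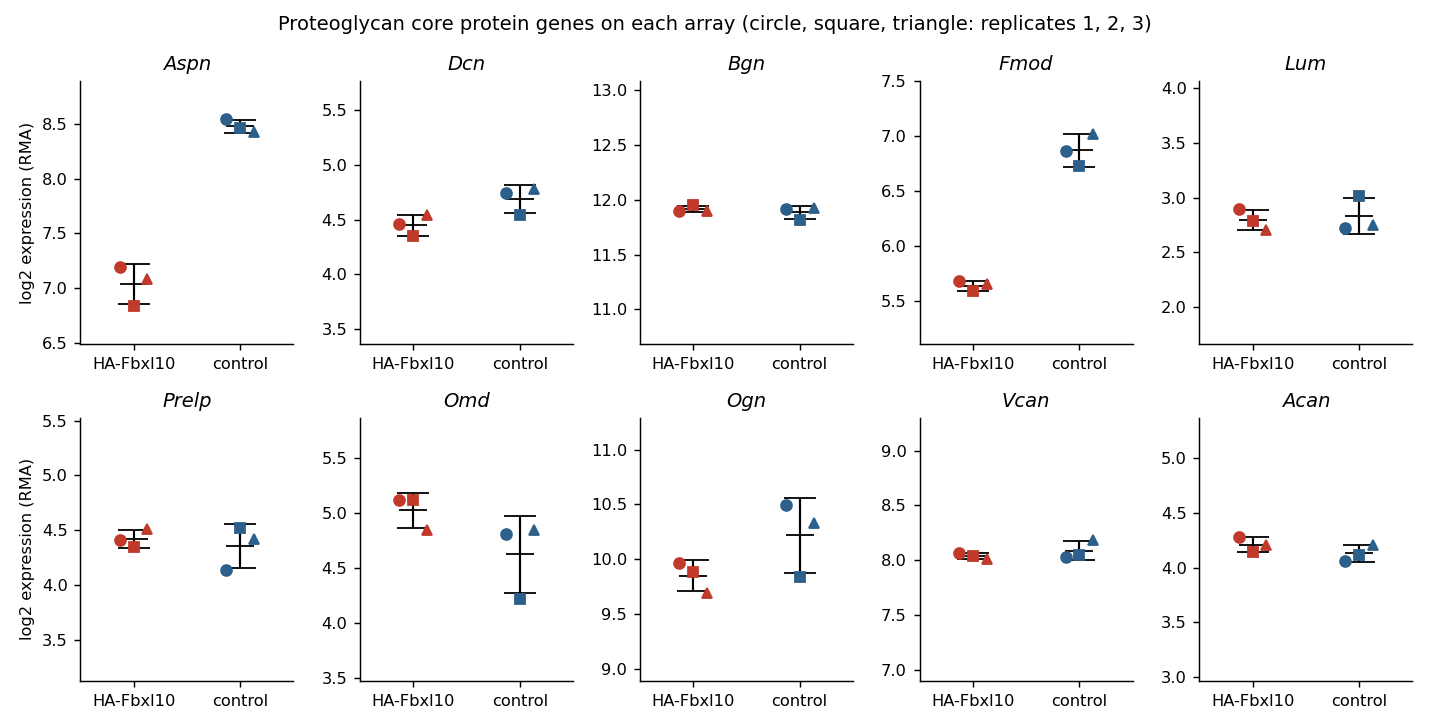
Log2 expression (RMA values, vertical axes all of the same span) of the 10 core protein genes on each of the 6 arrays, HA-Fbxl10 in red and control in blue. Bars give the mean ± SD of 3 arrays. Aspn and Fmod lie apart in the 2 groups, while Bgn, Lum, Prelp, Vcan and Acan overlap and Ogn and Omd are widely spread in control cells.

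The stretches of DNA just before the starts of these genes are shown here because Kdm2b binds CG dinucleotides and because Aspn and Fmod fell together. Promoter sequences (RefSeq, GRCm38.p6) were available here for 8 of the 10 genes, and not for Dcn and Lum. Each line is the 250 bases before the start, 5′ to 3′ on the gene's strand, with every CG in capitals. Aspn and Fmod are the genes that fell, and Omd and Ogn are the neighbours of Aspn on chromosome 13.
Aspn, chr13:49544193-49544442, plus strand: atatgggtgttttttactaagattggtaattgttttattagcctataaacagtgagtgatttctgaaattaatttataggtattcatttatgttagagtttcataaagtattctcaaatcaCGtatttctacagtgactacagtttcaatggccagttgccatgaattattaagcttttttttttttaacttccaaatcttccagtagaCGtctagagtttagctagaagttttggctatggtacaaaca
Fmod, chr1:134037004-134037253, plus strand: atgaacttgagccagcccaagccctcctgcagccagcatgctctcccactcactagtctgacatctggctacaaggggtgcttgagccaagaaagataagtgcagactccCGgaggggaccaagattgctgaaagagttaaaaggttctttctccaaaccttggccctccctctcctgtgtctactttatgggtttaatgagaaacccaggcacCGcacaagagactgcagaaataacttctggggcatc
Omd, chr13:49582212-49582461, plus strand: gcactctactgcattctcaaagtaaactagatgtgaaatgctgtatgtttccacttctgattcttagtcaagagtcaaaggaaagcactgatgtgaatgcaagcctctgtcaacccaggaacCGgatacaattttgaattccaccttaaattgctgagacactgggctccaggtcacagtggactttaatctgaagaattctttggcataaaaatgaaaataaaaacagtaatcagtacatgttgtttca
Ogn, chr13:49607765-49608014, plus strand: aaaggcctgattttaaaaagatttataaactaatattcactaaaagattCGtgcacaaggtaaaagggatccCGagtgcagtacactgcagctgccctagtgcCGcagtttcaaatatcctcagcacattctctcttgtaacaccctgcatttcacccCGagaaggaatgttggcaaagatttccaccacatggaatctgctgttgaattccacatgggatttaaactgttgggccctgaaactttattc

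Aspn and Fmod each held 2 CG dinucleotides in this window, Omd held 1 and Ogn held 4. Over 32851 windows of the same length the median was 6, and 29% of windows held 2 or fewer. Among the other genes, Prelp held 5, Bgn 7, Vcan 10 and Acan 26. The windows of Prelp and Vcan lay inside the annotated span of their gene, before a start within it. The cartilage gene Acan thus had the window richest in CG of the 8, and 91.4% of all windows held as many or fewer. The windows of the 2 genes that fell differed in base composition, with 30% G and C for Aspn and 51.2% for Fmod. The motif TATAAA was found, counting both strands, 2 times each in the windows of Aspn and Ogn and in none of the other 6. The matches in Ogn overlap on opposite strands of the same stretch, while those in Aspn lie apart. Of all windows 12.4% held the motif. The letters CAGAC, a box bound by SMAD proteins, were found on either strand 2 times in Fmod, 1 time in Prelp and in none of the other 6, against 42.2% of all windows. TGANTCA, the AP-1 element, which reads the same on both strands, was in none of the 8 windows and in 6.7% of all. None of these motifs contains another, and a match describes letters, not binding.

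The class I SLRPs are asporin, decorin and biglycan. Aspn encodes asporin, which binds collagen and TGF-beta and, unlike the other members of its class, carries a stretch of aspartate residues and no known glycosaminoglycan chain. Its log2 level was 7.19, 6.84 and 7.08 on the HA-Fbxl10 arrays, against 8.54, 8.46 and 8.43 on the control arrays. The groups lay more than 1 log2 unit apart, and the HA-Fbxl10 arrays were the more spread. The log2 difference was -1.44 ± 0.09 (SE, limma adjusted p = 1.41e-05), with a 95% interval of -1.65 to -1.23.

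Decorin (Dcn), an SLRP of skin and tendon, restrains the sideways growth of collagen fibrils and binds TGF-beta and the receptors encoded by Egfr and Met. Its log2 level was 4.46, 4.35 and 4.54 on the HA-Fbxl10 arrays and 4.75, 4.54 and 4.78 on the control arrays. All 3 HA-Fbxl10 arrays lay below the lowest control array, but the highest of them reached within rounding of control replicate 2. The log2 difference was -0.24 ± 0.08 (SE), which did not pass the test (limma adjusted p = 0.0752, unadjusted p = 0.0182). Without control replicate 2 it was -0.31 with an adjusted p of 0.0305. It did not pass without any other single array, and without HA-Fbxl10 replicate 2 it was -0.19 (limma adjusted p = 0.214). All 6 values lay below the median of all genes, where RMA compresses differences.

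Biglycan (Bgn), an SLRP with dermatan or chondroitin sulfate chains whose soluble form is a ligand of the receptors encoded by Tlr2 and Tlr4, was measured at 11.90, 11.95 and 11.90 on the HA-Fbxl10 arrays. The control arrays gave 11.92, 11.82 and 11.92. The groups overlapped, and the log2 difference was 0.03 ± 0.06 (SE, limma adjusted p = 0.822) with a 95% interval of -0.11 to 0.17. That interval excludes a change of the size seen for Aspn.

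The class II SLRPs, which can carry keratan sulfate, are fibromodulin, lumican, PRELP and osteomodulin. Fmod encodes fibromodulin, which shares a binding site on collagen with lumican and takes part in the crosslinking of collagen. Its log2 level was 5.67, 5.58 and 5.65 on the HA-Fbxl10 arrays, against 6.86, 6.72 and 7.02 on the control arrays. The groups did not overlap, and the HA-Fbxl10 arrays lay within 0.1 of each other. The log2 difference was -1.23 ± 0.08 (SE, limma adjusted p = 1.65e-05), with a 95% interval of -1.42 to -1.05.

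Lumican (Lum), a keratan sulfate proteoglycan known best from the transparent cornea, was at 2.89, 2.78 and 2.71 on the HA-Fbxl10 arrays and at 2.72, 3.02 and 2.75 on the control arrays. All 6 values lay below the lower quartile of genes on their array, where these data do not tell signal from background. Its log2 difference of -0.03 ± 0.09 (SE, limma adjusted p = 0.86) therefore says little about the transcript. Prelp encodes a basic SLRP that anchors collagen to the heparan sulfate proteoglycan perlecan. It was at 4.41, 4.35 and 4.51 on the HA-Fbxl10 arrays and at 4.14, 4.52 and 4.42 on the control arrays, which overlapped. The log2 difference was 0.07 ± 0.10 (SE, limma adjusted p = 0.723). All 6 values of Prelp lay below the median of all genes.

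Osteomodulin (Omd), a keratan sulfate proteoglycan of bone matrix, was at 5.12, 5.12 and 4.84 on the HA-Fbxl10 arrays and at 4.81, 4.22 and 4.84 on the control arrays. All 6 values lay below the median of all genes, where RMA compresses differences. Control replicate 2 was lower than every other array, and the third HA-Fbxl10 array was level with the highest control arrays. The log2 difference was 0.40 ± 0.16 (SE), which did not pass the test (limma adjusted p = 0.11, unadjusted p = 0.0300). After subtraction of array medians, on which scale the median difference of all genes was 0.05, it did (0.46, adjusted p = 0.0449). Without control replicate 2 the log2 difference was 0.20 (adjusted p = 0.228).

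Osteoglycin or mimecan (Ogn) is the class III member of the group. Its log2 level was 9.97, 9.89 and 9.69 on the HA-Fbxl10 arrays and 10.49, 9.84 and 10.33 on the control arrays. As for Omd, control replicate 2 was the lowest of its group and HA-Fbxl10 replicate 3 the lowest of the other, and the groups overlapped through control replicate 2. The log2 difference was -0.37 ± 0.15 (SE), which did not pass the test (limma adjusted p = 0.126, unadjusted p = 0.0364). Without control replicate 2 it was -0.56 with an adjusted p of 0.00618, and without control replicate 1 it was -0.24 with an adjusted p of 0.362. The intervals for Dcn, Ogn and Omd lay off 0, but they are not adjusted for the number of genes tested.

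Both large proteoglycans gave small differences. Vcan encodes versican, a chondroitin sulfate proteoglycan of loose and embryonic connective tissue that binds hyaluronan. It was at 8.07, 8.04 and 8.02 on the HA-Fbxl10 arrays and at 8.03, 8.05 and 8.18 on the control arrays. The values overlapped, and the log2 difference was -0.05 ± 0.07 (SE, limma adjusted p = 0.711, 95% interval -0.20 to 0.10). Aggrecan (Acan), the main proteoglycan of cartilage, was at 4.28, 4.14 and 4.21 on the HA-Fbxl10 arrays and at 4.06, 4.12 and 4.21 on the control arrays. All of its values were under the median of all genes, and the log2 difference was 0.08 ± 0.07 (SE, limma adjusted p = 0.515). Acan thus did not pass the test in cells in which the cartilage collagen gene Col2a1 rose by 2.21 on the log2 scale (limma adjusted p = 2.47e-05).

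**Figure D2:**
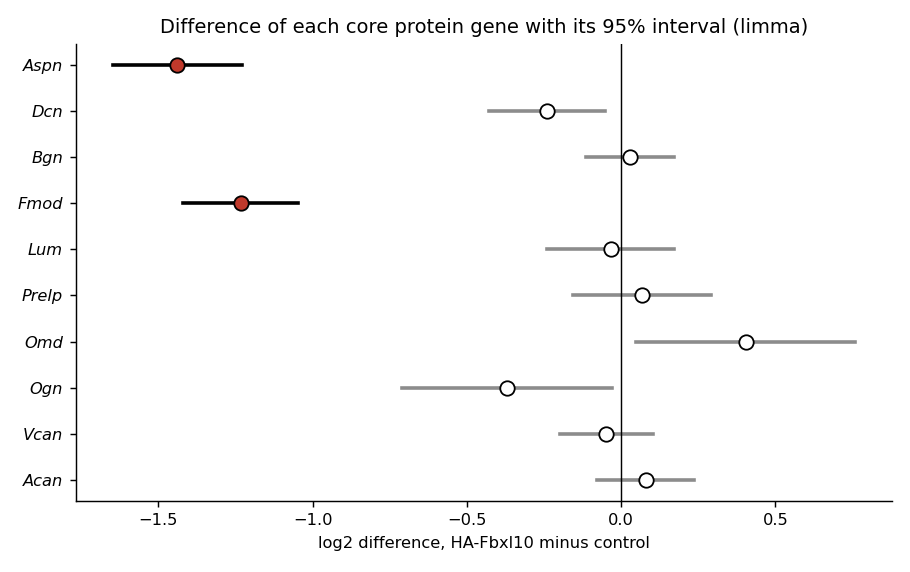
Log2 difference (HA-Fbxl10 minus control, horizontal axis) of each core protein gene with its 95% interval from limma, not adjusted for the number of genes. Filled red points passed an adjusted p of 0.05. Aspn at -1.44 and Fmod at -1.23 stand apart from the other 8 genes, which lie between -0.37 and 0.40.

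Several of the 10 genes are neighbours in the genome, which the choice of genes did not use. Aspn, Omd and Ogn lie in that order on chromosome 13 (GRCm38.p6), with 14.9 kb between Aspn and Omd and 15.4 kb between Omd and Ogn, just after Ecm2, which encodes another protein with leucine-rich repeats. All 4 lie within the span of the longer gene Cenpp, a kinetochore gene whose log2 difference was 0.00 ± 0.08 (SE). Prelp and Fmod lie 107.2 kb apart on chromosome 1, and Dcn and Lum 47.3 kb apart on chromosome 10. Neighbours did not share a difference: along chromosome 13 the log2 differences were 0.38 for Ecm2, -1.44 for Aspn, 0.40 for Omd and -0.37 for Ogn. Ecm2 passed the test (limma adjusted p = 0.00719), although all of its values lay below the median of all genes.

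The log2 ratio of a pair of neighbours within each array was compared for 5 pairs, a comparison chosen after the values were seen. The ratio of Ogn to Omd was 4.85, 4.77 and 4.85 on the HA-Fbxl10 arrays, against 5.68, 5.62 and 5.48 on the control arrays. These ratios did not overlap between the groups, although the levels of each gene alone did, since both genes were low on control replicate 2 and on HA-Fbxl10 replicate 3. The ratio fell by 0.77, and that of Aspn to Omd fell by 1.84, of Aspn to Ogn by 1.07 and of Fmod to Prelp by 1.30 on the log2 scale. For these 4 pairs the exact two-sided permutation p was 0.1, the smallest that 3 against 3 arrays can give, and 0.125 after Benjamini-Hochberg adjustment over the 5 pairs. The ratio of Dcn to Lum overlapped between the groups (exact permutation p = 0.4, adjusted 0.4). All values of Omd, Prelp, Dcn and Lum lay below the median of all genes, where RMA compresses differences, so these ratios carry that limit.

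The 30 nearest genes with a level above the median of all genes, 15 on each side, were set beside each of the core protein genes. Of the 30 neighbours around Aspn, Omd and Ogn, 15 passed the threshold as higher and 0 as lower, against 10.5% and 10.6% of all genes. Those shares include dim genes, which the choice of neighbours left out, so the sets are unlike. The share among genes above the median level is not given here. These neighbours had a median log2 difference of 0.22 and a lowest value of -0.19. Aspn and Ogn therefore lay below every one of their 30 neighbours, while Omd lay above 24 of them. Omd itself had a level below the median of all genes, unlike those neighbours. Fmod also lay below all 30 of its neighbours, whose median was 0.09 and whose lowest value was -0.69. Bgn on the X chromosome lay above 25 of its 30 neighbours, whose median was -0.20. Vcan, farther along chromosome 13, lay below 26 of 30 neighbours with a median of 0.20.

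Removing the local shift changed the counts. The running median of 31 neighbouring genes was subtracted only from genes above the median level. Dcn, Lum, Omd, Prelp and Acan lay below that level, so their log2 differences stayed as before. On this mixed scale 4 of the 10 core protein genes fell and 1 rose, while 15.4% of all genes passed. Relative to the running median Aspn fell by 1.65, Fmod by 1.32, Ogn by 0.58 (limma adjusted p = 0.0297) and Vcan by 0.24 (0.0441). Bgn rose by 0.22 (0.0423). Before the subtraction the log2 differences of Vcan and Bgn were -0.05 and 0.03, so most of their shift is that of the neighbours. The median of each chromosome was subtracted instead, again only from genes above the median level. Aspn, Fmod, Ogn and Vcan then fell and Bgn did not pass the test, while 17.3% of all genes passed. Both kinds of median were subtracted as fixed values, so the p-values on these scales leave out the error of the medians. Which of the scales describes the cells was not tested.

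**Figure D3:**
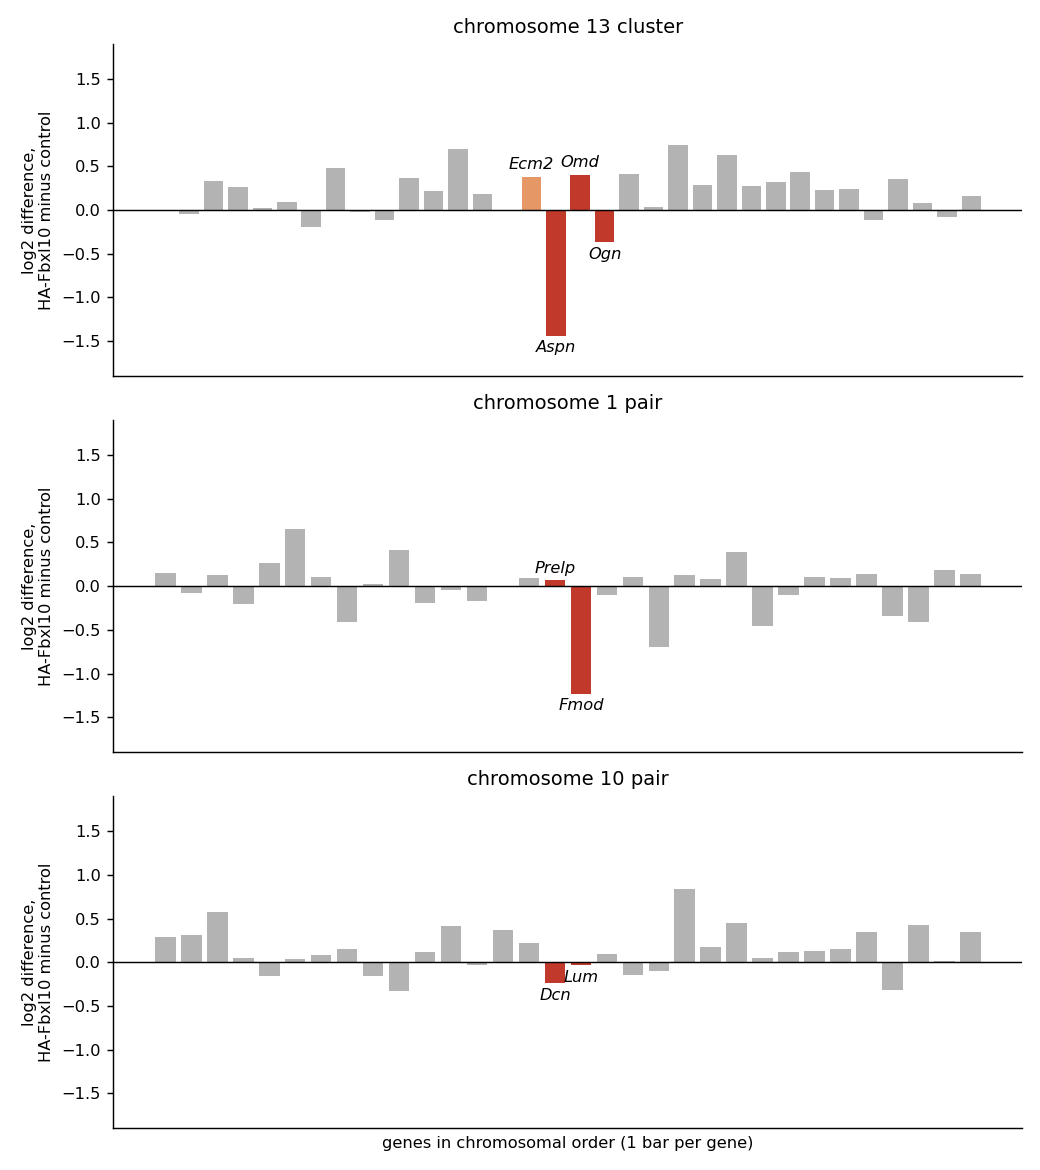
Log2 difference (HA-Fbxl10 minus control, vertical axes) of core protein genes (red) and of their neighbours above the median level of all genes (grey), 1 bar per gene in chromosomal order, with Ecm2 in orange. Aspn, Ogn and Fmod reach below every grey bar of their panel, while Omd and Ecm2 point up as most of their neighbours do.

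Other genes of proteoglycan assembly and turnover were taken from 8 lists with 158 genes, 153 of them measured. Of these 153 genes 29 rose, 21 fell and 103 did not pass, which is 50 of 153 against 21.1% of all genes, and the median log2 difference was 0.01. Each list count below is to be read beside the same share, with 10.5% of all genes higher and 10.6% lower. The lists hold many genes expressed in fibroblasts, and 61 of the 153 had a mean level below the median of all genes. The part of expression level in the share past the threshold was not tested. Among 9 other SLRP genes measured, Ecm2 (0.38 ± 0.08, SE) was the only 1 past the threshold. The keratocan and epiphycan genes Kera and Epyc, next to Lum on chromosome 10, averaged 3.13 and 3.32 in HA-Fbxl10 cells and 3.21 and 3.20 in control cells.

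Of 18 genes of hyaluronan and its binding partners, 4 fell, 1 rose and 13 did not pass. Has2, the main hyaluronan synthase of fibroblasts, was at 6.26, 6.45 and 6.22 on the HA-Fbxl10 arrays, against 7.34, 7.49 and 7.63 on the control arrays. The groups did not overlap, and Has2 fell by 1.18 ± 0.09 (SE, limma adjusted p = 4.20e-05), which is 2.26-fold. Cemip, which encodes a protein needed for hyaluronan breakdown, fell by 0.63 ± 0.08 (SE), with all 6 values below the median of all genes. Hyal2, a hyaluronidase gene, rose by 0.58 ± 0.08 (SE). The other 2 that fell, named after their values were seen, were Cemip2, which encodes a cell surface protein of hyaluronan breakdown, by 0.40 ± 0.07 and Tnfaip6, which encodes a hyaluronan-binding protein, by 0.46 ± 0.10 (SE). Tnfaip6 lay below the median of all genes on 4 of the 6 arrays. The link protein gene Hapln1, whose product fastens aggrecan to hyaluronan, averaged 3.03 in HA-Fbxl10 cells and 3.15 in control cells. It did not pass the test (limma adjusted p = 0.323), but all of its values lay below the lower quartile of their array, where signal is not told from background.

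Of 27 genes of chondroitin and dermatan sulfate synthesis, 7 rose, 4 fell and 16 did not pass, with a median log2 difference of 0.02. Chst7, a sulfotransferase gene acting on chondroitin, was at 8.76, 8.78 and 8.75 on the HA-Fbxl10 arrays, against 7.67, 7.61 and 7.66 on the control arrays, and it rose by 1.12 ± 0.06 (SE, limma adjusted p = 4.30e-06). Dsel, an epimerase gene that turns chondroitin into dermatan sulfate, fell by 0.70 ± 0.10, and Slc26a2, the sulfate transporter gene mutated in human chondrodysplasias, fell by 0.68 ± 0.08 (SE). The related epimerase gene Dse rose by 0.31 ± 0.07 (SE, limma adjusted p = 0.00931), a gene named after its value was seen. The epimerase genes thus went opposite ways. Of 10 keratan sulfate synthesis genes 1 rose and 2 fell. The sulfotransferase gene Chst2 rose by 0.78 ± 0.07, while Chst1, which adds sulfate to galactose in keratan sulfate, fell by 0.71 ± 0.13 and the galactosyltransferase gene B4galt1 fell by 0.35 ± 0.06 (SE). Chst1 lay below the median of all genes on 4 of the 6 arrays.

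Of 22 genes for heparan sulfate and cell surface proteoglycans, 4 rose, 2 fell and 16 did not pass. Cspg4, the transmembrane proteoglycan NG2 of pericytes and other mesenchymal cells, rose by 0.74 ± 0.07, the glypican gene Gpc4 rose by 0.68 ± 0.09 and the syndecan gene Sdc4 fell by 0.44 ± 0.06 (SE). Of 22 genes for proteases that cut core proteins and for their inhibitors, 8 rose, 3 fell and 11 did not pass. Among all genes 10.5% rose and 10.6% fell past the same threshold. Tll1, a tolloid-like protease gene related to Bmp1, was at 8.13, 8.32 and 8.25 on the HA-Fbxl10 arrays, against 6.02, 5.77 and 5.98 on the control arrays, which is 4.97-fold higher (limma adjusted p = 4.77e-07). Pcolce2, an enhancer of procollagen processing by such proteases, rose by 0.74 ± 0.06, and the gelatinase gene Mmp9 fell by 1.42 ± 0.09 (SE). Mmp9 lay below the median of all genes on the 3 HA-Fbxl10 arrays. Bmp1, whose product cleaves the propeptides of biglycan and osteoglycin, rose by 0.21 ± 0.06 (SE, limma adjusted p = 0.0429), named after its value was seen. That call ended without any 1 of the 6 arrays (adjusted p of 0.0508 to 0.142).

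Of 23 collagens and other matrix partners, 3 rose, 4 fell and 16 did not pass. Col12a1, a collagen on the surface of fibrils, rose by 0.90 ± 0.09 and the tenascin gene Tnc by 0.80 ± 0.10, while Col3a1, a fibrillar collagen of soft tissue, fell by 0.79 ± 0.07 (SE). Of 22 ligands and receptors bound by core proteins, 4 rose, 2 fell and 16 did not pass. Tgfb2 was at 7.29, 7.21 and 7.07 on the HA-Fbxl10 arrays, against 6.17, 6.04 and 6.48 on the control arrays, and it rose by 0.96 ± 0.11 (SE, limma adjusted p = 0.000366). Tgfb3 rose by 0.51 ± 0.07 and Tlr2, a biglycan receptor gene, fell by 0.70 ± 0.10 (SE). Tgfb1, named after its value was seen, fell by 0.36 ± 0.08 (SE, limma adjusted p = 0.00814), so the TGF-beta ligand genes did not move as 1 group.

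**Figure D4:**
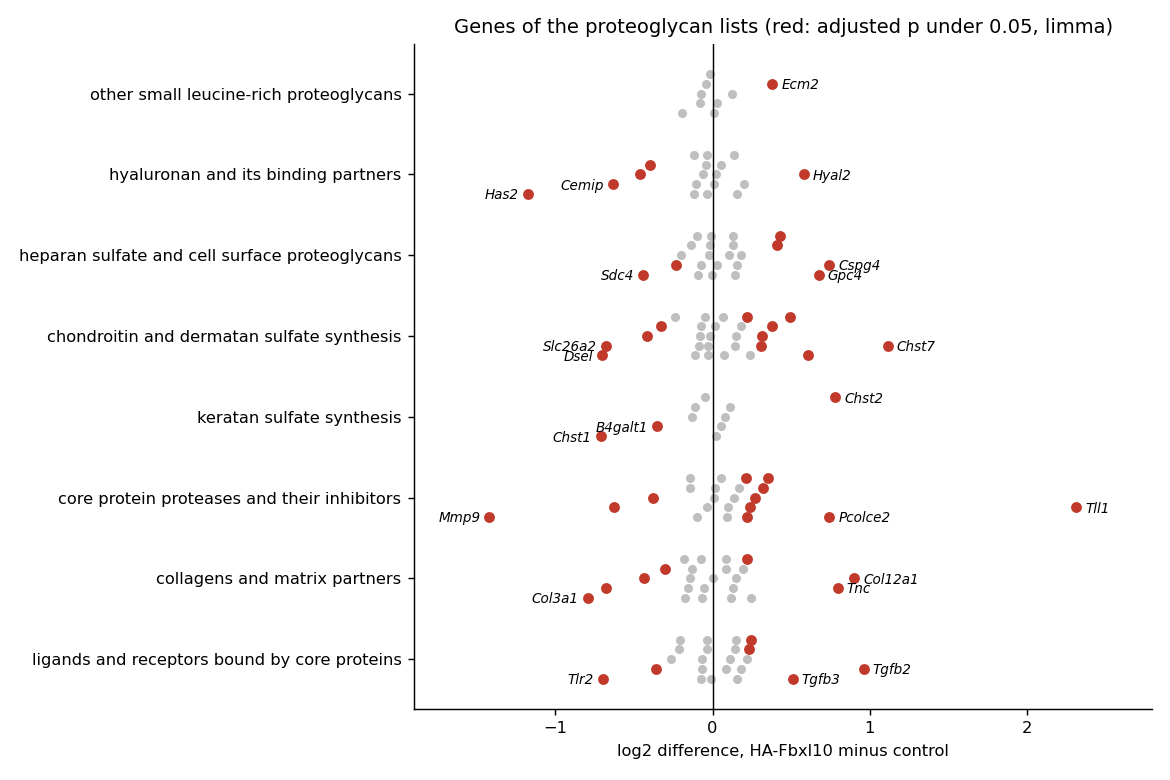
Log2 difference (HA-Fbxl10 minus control, horizontal axis) of each measured gene of the 8 lists, with genes past an adjusted p of 0.05 in red and the others in grey. Vertical position within a list only separates the points. Tll1 at 2.31 and Chst7 at 1.12 lie farthest up, Mmp9 at -1.42 and Has2 at -1.18 farthest down, and most genes lie near 0.

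Likeness to Aspn, the core protein gene with the largest change, was measured as the root-mean-square distance over the 6 arrays after each gene's control mean was subtracted. The 5 nearest of all genes tested were Clec11a at 0.0943, Tgfbi at 0.0997, Ptn at 0.10, Ccl2 at 0.117 and Txnip at 0.121 log2 units. Their log2 differences lay between -1.38 for Tgfbi and -1.56 for Clec11a. Tgfbi encodes a secreted matrix protein induced by TGF-beta, Clec11a a secreted growth factor of bone, Ptn the growth factor pleiotrophin, Ccl2 a monocyte-attracting chemokine and Txnip an inhibitor of thioredoxin. The measure depends mostly on the size of the difference between the groups, and the arrays share their labels and normalisation.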

How the data were processed

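Per the submitters' processing notes, the authors used RMA to make the deposited log2 values, 1 per probe set and array. RMA corrects background, gives all arrays the same distribution by quantiles and summarises probes. It therefore hides a shift of most genes and compresses low values. The sources used here give neither its version and settings nor detection calls or batches. Per the labels, 300 ng of RNA was used per array. Array medians were 4.69 to 4.79 over 35556 probe sets, correlations were 0.994 to 0.996 within groups and 0.990 to 0.992 between them, and 33 to 73 values were equal between any pair of arrays. Precision is limited by the number of arrays.

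Of these probe sets 21789 have a single gene in the platform annotation, 1621 several and 12146 none here. Symbols were updated to RefSeq (GRCm38.p6), which served for names, gene order and promoters, since the build behind the values is not given. The probe set with the highest mean was used per gene, which left 19936 genes with no filter on dim ones. The main test was limma 3.58.1 (lmFit, eBayes, two-sided, Benjamini-Hochberg over all genes, threshold 0.05) under R 4.3.3, checked on simulated data. Differences are HA-Fbxl10 minus control with moderated standard errors. Ratios were tested with exact permutations in scipy 1.17.1.

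Named were all 10 core protein genes, Kdm2b, from each list the 3 largest changes past the threshold without overlap, and the 5 genes most like Aspn. Marker genes and a few list members were named besides. The core protein genes, lists and tests were chosen with earlier results of these data known. Alternatives were other array scalings, a filter on dim genes, other uses of probe sets, other variance and array weights, a replicate block, leaving out each array, a threshold of 0.01, and removal of chromosome or running medians. Same-numbered replicates did not deviate together (correlations of -0.28 to 0.09), so the numbers were not used as pairs.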

Additional observations from a re-analysis of the deposited data

How the results depend on the processing

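Aspn and Fmod fell past the threshold in all 18 alternatives, with log2 differences of -1.65 to -1.34 for Aspn and -1.32 to -1.16 for Fmod. Lum, Prelp and Acan passed in none of the alternatives in which they were tested. The other 5 core protein genes passed in some. Dcn did so in 1 (without control replicate 2), Bgn in 1 (running median removed), Omd in 1 (array medians subtracted), Vcan in 2 (running or chromosome median removed) and Ogn in 4. Those of Ogn were limma-trend (-0.37, adjusted p = 0.0341), leaving out control replicate 2 and removal of either median. The core protein genes past the threshold numbered 5 with the running median removed (4 lower, 1 higher, with 3064 of all genes) and 4 with the chromosome median removed (4 lower, with 3445 of all genes). Neither median was subtracted from Dcn, Lum, Omd, Prelp or Acan. With array medians subtracted 1 core protein gene was higher. Leaving out single arrays gave 2 to 4, all lower, with 4 only without control replicate 2. The 28 other genes named by rule kept direction and call in all 504 values. Most of them were picked from these same data as the largest changes of a list, so their kept calls are no separate support. Of the genes named besides, Bmp1, Cd14, Pdgfra and Sox9 lost their calls in 12, 9, 7 and 7 of 18 alternatives, Bmp1 (0.05), Sox9 (-0.19) and Cd14 (-0.40) among them with the running median removed. Tnfaip6 lost its call only at an adjusted p of 0.01. Over all genes 4208 passed, 2536 of them at an adjusted p of 0.01, and 3208 to 3853 without single arrays. Of the called genes 49.8% were higher, and 62.9% after subtraction of array medians. Genes of the 8 lists past the threshold numbered 50, and 40 to 46 without single arrays. With the replicate number as a block 3397 genes, 40 list genes and the same 2 core protein genes passed, so the block changed no call among those 10. It ended those of Bmp1, Sox9 and Cd14 (adjusted p of 0.054 to 0.105). Values below the lower quartile of their array, as for Lum, are not told from background here. The causes of these shifts were not tested.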
